A study of Mus musculus with 32 samples.

Results

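The comparison described here set male mouse livers given LNA-1948 against male livers given a scrambled LNA, both collected on day 6. An LNA is a short oligonucleotide with locked nucleic acid bases, and LNA-1948 was designed to pair with the microRNA miR-1948-5p and block it. Genes were included where the authors' mean expression reached 1 FPKM (fragments per kilobase of transcript, scaled to the number of mapped fragments) in either of these groups, which held for 9200 of the 24197 genes in the table (38.0%). At the edge of this rule, Phf13 with group means of 1.0004 and 0.9365 FPKM was included and 4930556M19Rik with 0.9495 and 0.9999 FPKM was not.

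The LNA-1948 group held 5 mice and the scrambled group 3 mice. All were males of the outbred strain Crl:CD1(ICR), injected at 9 weeks of age and labelled as 10 weeks old at collection. Each mouse received 2 subcutaneous doses of 25 mg/kg in PBS on consecutive days, the controls a scrambled LNA at the same dose, so no group was left without an oligonucleotide. The series holds 32 mice in 8 groups, with LNA-1948 given to males and an LNA against miR-802-5p (LNA-802) to females, each also with day 3 livers. The labels name no transgene, a liver is a mixture of cell types, and the mice of an outbred strain differ in genotype.

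Mouse liver differs strongly between the sexes. The pituitary releases growth hormone in pulses in males and more steadily in females, and the transcription factor STAT5b carries that pattern to male-biased genes such as the major urinary protein (Mup) genes and to female-biased genes such as several Cyp2b, Cyp2c and Cyp3a enzymes. The repressors BCL6 and CUX2 act on female-biased and male-biased genes, respectively. A microRNA lowers the messenger RNAs whose 3′ untranslated regions (UTRs) match its seed, so an LNA against it would be looked for in genes with such a match. LNA-1948 and LNA-802 were given to opposite sexes, and the study compared each with its own scrambled controls.

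The scrambled LNA, shown because every value in this comparison is a ratio to mice that received it, has the sequence in the next line.
scrambled LNA: acgtctatacgccca

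Among the genes that passed the test, the largest rises were in Mup genes that are near copies of each other, so their promoters are shown for how alike these are. The sequences are RefSeq, build GRCm38.p6, all on the minus strand of chromosome 4, from 250 bases before to 50 bases after the gene start. They lie at chr4:61595783-61596082 for Mup17, chr4:60421903-60422202 for Mup9 and chr4:61439655-61439954 for Mup15. Capitals in Mup9 and Mup15 mark bases that differ from Mup17 or are inserted in an alignment to it. The capitals that end Mup9 lie past the end of the Mup17 window.
Mup17: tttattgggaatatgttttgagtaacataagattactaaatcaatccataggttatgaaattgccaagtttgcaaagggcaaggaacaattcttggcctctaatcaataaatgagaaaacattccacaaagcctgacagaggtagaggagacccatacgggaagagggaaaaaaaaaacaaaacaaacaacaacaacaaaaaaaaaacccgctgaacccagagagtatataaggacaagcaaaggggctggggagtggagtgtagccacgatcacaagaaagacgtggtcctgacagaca
Mup9: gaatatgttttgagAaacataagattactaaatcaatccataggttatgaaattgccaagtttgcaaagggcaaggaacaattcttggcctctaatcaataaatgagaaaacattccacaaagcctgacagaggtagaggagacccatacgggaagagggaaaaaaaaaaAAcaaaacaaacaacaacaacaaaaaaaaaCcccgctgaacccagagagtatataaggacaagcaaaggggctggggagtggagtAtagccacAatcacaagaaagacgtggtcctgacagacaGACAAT
Mup15: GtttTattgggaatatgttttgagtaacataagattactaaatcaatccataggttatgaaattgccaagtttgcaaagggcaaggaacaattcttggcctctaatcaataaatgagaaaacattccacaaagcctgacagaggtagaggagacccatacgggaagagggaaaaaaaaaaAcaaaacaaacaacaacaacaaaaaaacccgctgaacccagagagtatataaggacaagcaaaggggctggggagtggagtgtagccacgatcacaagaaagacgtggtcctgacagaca
Counted by the edits needed to turn one into the other, Mup15 and Mup17 are 98% identical over these windows. Mup9 is 93.3% identical to Mup17 and 92.3% to Mup15 by the same count. The Mup9 window starts and ends further along the shared sequence than theirs. Many of the edits counted for Mup9 therefore come from where the window was placed and not from differing bases. The coding sequences are as close, at 98.5% for Mup15 and Mup17, 99.3% for Mup15 and Mup16, and 97.4% for Mup9 and Mup16. The reads of these genes could have been divided among them or dropped in the counting, so their single values are uncertain.

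The authors' deposited table gives a mean FPKM per group, a ratio and an edgeR p per gene, with no value per mouse and no counts. Neither library depth nor the mouse-to-mouse spread can be read from it, and the smallest change that could be called is seen only through the p-values. From each log2 ratio and its p an approximate standard error was computed, with a median of 0.138 on the log2 scale. It was 0.17 for 3409 genes with a mean of under 3 FPKM and 0.119 for 270 genes at 100 FPKM or more. Group means in the authors' deposited table summed to 202716 FPKM in scrambled and 203112 FPKM in LNA-1948 males, with 9004 and 9085 genes at 1 FPKM or more. The labels give the mice of a group as separate animals, and each day has its own library series. The tissue was liver by its markers: 10 of 10 hepatocyte genes reached 1 FPKM, and their summed means were 32300 FPKM in scrambled and 28100 FPKM in LNA-1948 males.

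On day 6, few liver genes had changed, and the widest changes that passed the test were in Mup genes and in genes of female-biased enzymes. Mup9, Mup15, Mup16 and Mup17, the steroid hydroxylase gene Cyp7b1 and the coumarin hydroxylase gene Cyp2a5 rose. The female-biased genes Hao2, Cyp2b9, Cyp2c40 and Cyp3a41a fell, and so did Ppp1r3b, Sult1a1, Rassf4 and Dusp1, which are described one by one. In the authors' deposited table, 22 of the 9200 genes (0.239%) passed an edgeR adjusted p of 0.05. Of these 9 were higher (0.0978%) and 13 lower (0.141%) with LNA-1948. Without the 1 FPKM minimum the authors' deposited table holds 30 such genes. At an unadjusted edgeR p under 0.05 it holds 452 genes (4.91%), 223 higher (2.42%) and 229 lower (2.49%). The authors adjusted over all genes of the table. With the adjustment made over the 9200 genes, 22 were higher and 26 lower. The median log2 ratio was 0.007, and 4819 genes (52.4%) had a positive one.

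**Figure D1:**
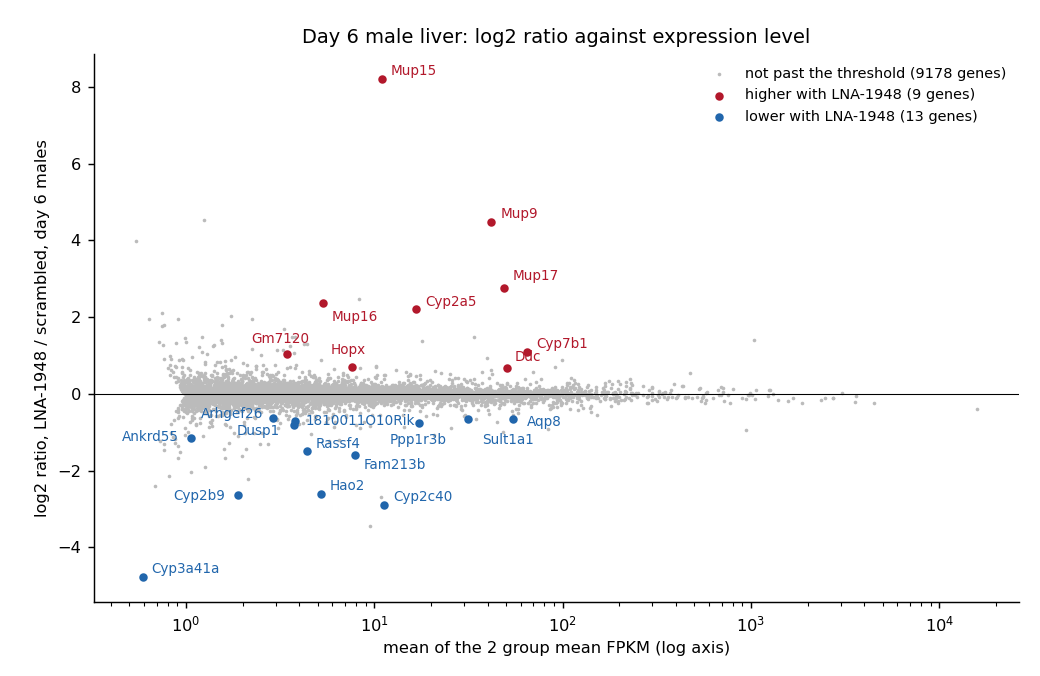
Log2 ratio of LNA-1948 to scrambled males at day 6 (vertical axis) against the mean of both group means in FPKM (horizontal, log axis), with 1 point per gene for the 9200 genes. The 9 red genes passed as higher and the 13 blue ones as lower; Mup15 at 8.21 and Cyp3a41a at -4.77 are the outermost of these.

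The size of a change and its test were only loosely tied. In all, 86 genes had a log2 ratio beyond 1 in either direction, and 14 of them passed. The smallest ratio that passed was 0.64 on the log2 scale without its sign, and the largest that did not was 4.54. None of the 270 genes at 100 FPKM or more passed by the edgeR adjusted p, while 24 of them (8.89%) had an unadjusted p under 0.05.

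Mup genes encode small carrier proteins that hepatocytes secrete and the kidney passes into urine, where they bind pheromones. Mup9 had the authors' mean of 3.5 FPKM in scrambled and 80.3 FPKM in LNA-1948 males at day 6. In the authors' deposited table this was a 22.2-fold rise (edgeR adjusted p = 0.00021; mm9 chromosome 4, 60430918 to 60434824). Its day 3 means were 27.4 FPKM in scrambled and 17.2 FPKM in LNA-1948 males. The day 6 controls were thus the lowest of these male groups and the day 6 treated males the highest. Scrambled females had 26.6 FPKM at day 3 and 36.1 FPKM at day 6. Mup9 was thus not male-biased in the day 3 controls, with a 1.03-fold sex difference.

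Mup17 went from the authors' mean of 11.9 to 85.5 FPKM, a 6.81-fold rise in their deposited table (edgeR adjusted p = 0.00747; chromosome 4, 61252962 to 61256864). At day 3 the authors' means for Mup17 were 48.1 FPKM with scrambled LNA and 42.5 FPKM with LNA-1948. Mup16 went from the authors' mean of 1.67 to 8.96 FPKM, a 5.12-fold rise in their deposited table (edgeR adjusted p = 0.00566). Both genes thus had their lowest male mean in the day 6 controls, as Mup9 did.

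Mup15 went from the authors' mean of 0.0663 to 22 FPKM (edgeR adjusted p = 0.0137 in the authors' deposited table). Its ratio rests on a control mean near 0, and the implied standard error of its log2 ratio of 8.21 was 1.87. The table lists 2 locations for it. Its means were 0.0678 FPKM in scrambled and 1.43 FPKM in LNA-1948 males at day 3, and 0.239 FPKM in day 3 scrambled females. Mup15 was thus near 0 in both male control groups and above them in both treated groups, although the day 3 ratio did not pass (edgeR adjusted p = 1 in the authors' deposited table).

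Of 16 Mup genes at 1 FPKM, 14 had a positive log2 ratio, 4 passed as higher and none as lower. At an unadjusted edgeR p under 0.05, 10 were higher, against 2.42% of all 9200 genes. The median log2 ratio of the 16 was 1.27, against 0.01 over all 9200 genes. At day 3 the median of the same 16 had the opposite sign, at -0.44, against -0.01 over all 9200 genes. Mup20, which encodes darcin, the male sex pheromone protein, had the authors' means of 555 and 1530 FPKM and did not pass (edgeR adjusted p = 0.0658 in the authors' deposited table). Summed over 20 Mup genes, the means came to 4460 FPKM in scrambled and 5739 FPKM in LNA-1948 males at day 6. The same sums were 5197 and 4282 FPKM at day 3, and 1049 and 1072 FPKM in scrambled females of day 3 and day 6. Mup3, the most abundant member and named here after its values were seen, had the authors' means of 2790 and 2680 FPKM at day 6. The summed level of the day 6 treated males was thus the highest of these groups, with no test of a sum possible.

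The listed female-biased genes Hao2, Cyp3a41a, Cyp2c40 and Cyp2b9 fell, and on both days scrambled males had lower means of them than scrambled females. Hao2, a peroxisomal hydroxyacid oxidase, had the authors' mean of 8.9 FPKM in scrambled and 1.52 FPKM in LNA-1948 males at day 6. In the authors' deposited table this was a 6.04-fold fall (edgeR adjusted p = 0.0145; chromosome 3, 98678441 to 98697153). At day 3 the order was the reverse, with 2.04 FPKM in scrambled and 7.95 FPKM in LNA-1948 males, a 3.87-fold rise in the authors' deposited table (adjusted p by edgeR = 9.48e-05). The day 6 treated mean was thus close to the day 3 control mean, and the day 6 control mean close to the day 3 treated mean. Scrambled females had 29.4 and 34.9 FPKM on the same days, above all male groups.

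Cyp3a41a, a female-specific P450 of the Cyp3a family, showed the same crossing at a lower level. Its authors' means were 1.14 FPKM in scrambled and 0.042 FPKM in LNA-1948 males at day 6, against 0.0536 and 1.18 FPKM at day 3. The fall at day 6 was 27.3-fold in the authors' deposited table (adjusted p by edgeR = 0.0156; chromosome 5, 146505623 to 146531712). The rise at day 3 was 21.3-fold there and did not pass (edgeR adjusted p = 0.147). Cyp3a41a is 99.9% identical to Cyp3a41b in coding sequence and the table lists 2 locations for it, so both are uncertain.

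Cyp2c40, a cytochrome P450 that metabolises arachidonic acid, went from the authors' mean of 19.9 to 2.7 FPKM, a 7.48-fold fall in their deposited table (edgeR adjusted p = 0.046; chromosome 19, 39841562 to 39887304). Cyp2b9, a P450 of the phenobarbital-responsive Cyp2b family, went from 3.25 to 0.537 FPKM, a 6.19-fold fall in the authors' deposited table (adjusted p by edgeR = 0.0203; chromosome 7, 26958427 to 26995679). Their day 3 means were 10.3 and 16.4 FPKM for Cyp2c40 and 1.95 and 4.6 FPKM for Cyp2b9, each lower in the controls. Scrambled females of day 6 had 110 FPKM of Cyp2c40 and 134 FPKM of Cyp2b9. Cyp2c40 is 98.1% identical to Cyp2c68 and Cyp2b9 92.7% identical to Cyp2b13, so reads may be shared.

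Of 37 listed female-biased genes, 18 reached 1 FPKM. Of these 18, 4 passed as lower and none as higher, against 0.141% and 0.0978% of all 9200 genes. A negative log2 ratio was found for 16, against 47.6% of all genes, and the median was -0.86, against 0.01. Cyp2b9 and Cyp3a41a reached 1 FPKM in the scrambled group alone, a route by which only falls can enter. With a 0.1 FPKM minimum the median was -0.58. At day 3 the median log2 ratio of the same 18 genes had the opposite sign, at 0.38. The list was chosen with earlier results of these mice known, so its count is not independent evidence of its direction. Cyp4a10, a fatty acid hydroxylase in that list, had the authors' means of 18.8 and 2.98 FPKM and did not pass (edgeR adjusted p = 0.0673 in the authors' deposited table). Its sex difference in the day 3 controls did not pass either (edgeR adjusted p = 0.215 there), nor did that of Cyp4a14, also listed. Day 6 scrambled females had 1.51 FPKM of Cyp4a14 and scrambled males 17.2 FPKM. Both genes are also in the fatty acid oxidation list, so their falls enter both medians.

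Cyp7b1 hydroxylates oxysterols in the acidic pathway of bile acid synthesis and is higher in male liver. Its authors' means at day 6 were 40 FPKM in scrambled and 89.6 FPKM in LNA-1948 males, a 2.14-fold rise in their deposited table (edgeR adjusted p = 0.00839; chromosome 3, 17971949 to 18143338). At day 3 they were 50.7 and 35.3 FPKM, lower with LNA-1948, and in scrambled females 8.29 FPKM at day 3. The day 6 treated males thus had the highest mean of the groups compared and the females the lowest. Ddc, the aromatic amino acid decarboxylase, went from the authors' mean of 38.3 to 63.4 FPKM, a 1.59-fold rise in their deposited table (edgeR adjusted p = 0.000376; chromosome 11, 11714103 to 11790411).

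Among 22 listed male-biased genes at 1 FPKM, Cyp7b1 and Ddc passed as higher and none as lower, against 0.0978% and 0.141% of all 9200 genes. Of the others, Mup20 is given above and Cyp2u1, a fatty acid hydroxylase, had the authors' means of 10 and 16 FPKM (edgeR adjusted p = 0.102 in the authors' deposited table). The list had 18 positive log2 ratios, against 52.4% of all 9200 genes, and a median of 0.28, against 0.01. It too was chosen with earlier results of these mice known, so its count is not independent evidence of its direction. At day 3 the median log2 ratio of the same 22 genes had the opposite sign, at -0.33.

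Cyp2a5, which hydroxylates coumarin and nicotine, is female-biased and rose, whereas the listed female-biased genes that passed fell. Its authors' means at day 6 were 5.83 FPKM in scrambled and 27.6 FPKM in LNA-1948 males, a 4.59-fold rise in their deposited table (edgeR adjusted p = 0.00021; chromosome 7, 27620357 to 27628283). At day 3 they were 8.66 and 7.23 FPKM, and in scrambled females 41.8 FPKM at day 3 and 49.8 FPKM at day 6. The day 6 treated males were therefore above every other male group and below the scrambled females. Cyp2a5 and Cyp2a4 are 98.4% identical in coding sequence, and their reads may be divided. Cyp2a4, a listed female-biased gene named after its values were seen, had a day 6 log2 ratio of -1.61 and did not pass. How far the rise of Cyp2a5 depends on how reads were divided between these copies was not tested.

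**Figure D2:**
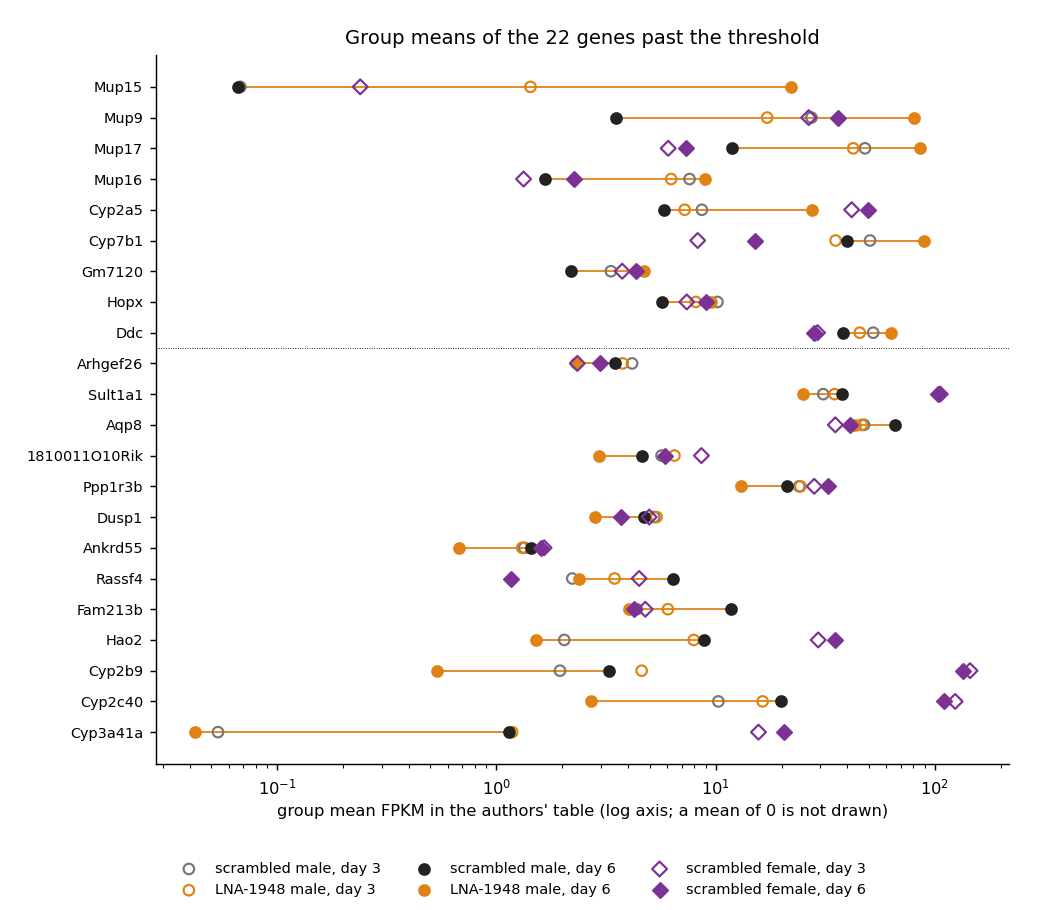
Authors' group mean FPKM (horizontal, log axis) of the 22 genes that passed, ordered by day 6 log2 ratio, with males as circles, scrambled females as diamonds, day 3 open and day 6 filled. Lines join the day 6 male groups; for Hao2 and Cyp3a41a the day 6 LNA-1948 mean lies near the day 3 scrambled mean, and the means carry no error because the table has none.

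Ppp1r3b, Sult1a1 and Aqp8 each fell by less than 2-fold. Ppp1r3b, the liver subunit that directs protein phosphatase 1 to glycogen, went from the authors' mean of 21.2 to 13.1 FPKM. Its 1.68-fold fall had the smallest edgeR adjusted p in the authors' deposited table, 5.15e-05 (chromosome 8, 36438794 to 36451191). The day 3 means were 24.1 and 24.4 FPKM, so the day 6 treated males were the lowest of the male groups.

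Sult1a1, a phenol sulfotransferase, went from the authors' mean of 37.9 to 25.1 FPKM, a 1.57-fold fall in their deposited table (edgeR adjusted p = 0.000445). Scrambled females had 106 FPKM at day 3, against 31 FPKM in scrambled males of that day. It was 1 of 5 sulfotransferase genes at 1 FPKM and the only 1 of these to pass. Aqp8, a water channel of the hepatocyte, went from the authors' mean of 65.8 to 43.1 FPKM, a 1.58-fold fall in their deposited table (edgeR adjusted p = 0.0123). Its other male means were 47.6 and 46.5 FPKM at day 3, so the day 6 controls were the highest of the male groups.

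Fam213b, a prostaglandin F synthase, had the same order of groups at its top. Its authors' means were 11.8 FPKM in scrambled and 4.02 FPKM in LNA-1948 males at day 6, and 4.37 and 6.06 FPKM at day 3. The day 6 fall was 3.01-fold in the authors' deposited table (adjusted p by edgeR = 0.00123; chromosome 4, 154270538 to 154273152). The day 6 control mean was again the highest of the male groups.

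Among signalling genes, Rassf4, a member of the Ras-association domain family, fell from the authors' mean of 6.42 to 2.37 FPKM. The fall was 2.82-fold in the authors' deposited table (adjusted p by edgeR = 0.00021; chromosome 6, 116583025 to 116623854). Its day 3 means were 2.22 and 3.46 FPKM, which again leaves the day 6 controls as the highest male group. The other 5 Rassf genes at 1 FPKM did not pass, with log2 ratios such as -0.24 for Rassf6.

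Dusp1, a phosphatase that switches off MAP kinases, fell from the authors' mean of 4.71 to 2.81 FPKM (1.74-fold, edgeR adjusted p = 0.00123 in the authors' deposited table). Its day 3 means were 5.25 and 5.38 FPKM, so the day 6 treated males were the lowest group. Ankrd55, an ankyrin repeat protein, had authors' means of 1.44 FPKM in scrambled and 0.675 FPKM in LNA-1948 males and fell in their deposited table (2.21-fold, edgeR adjusted p = 0.000376), with day 3 means of 1.34 and 1.31 FPKM. Arhgef26, a guanine nucleotide exchange factor, fell 1.56-fold in the authors' deposited table, with means of 3.47 and 2.31 FPKM (adjusted p by edgeR = 0.0108). In Dusp1, Ankrd55 and Arhgef26, as in Ppp1r3b, the day 6 treated mean was the lowest of the 4 male groups.

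1810011O10Rik, named Tcim in the GENCODE annotation, fell 1.64-fold in the authors' deposited table, with means of 4.63 and 2.93 FPKM (adjusted p by edgeR = 0.00839). Gm7120, there named Tmem267, rose 2.07-fold in the authors' deposited table, with means of 2.18 and 4.69 FPKM (adjusted p by edgeR = 0.0386). Hopx, a homeodomain protein that does not bind DNA, rose 1.63-fold in the authors' deposited table, with means of 5.67 and 9.55 FPKM (adjusted p by edgeR = 0.046). The day 3 means of Hopx were 10.2 and 8.12 FPKM, so its day 6 control mean was the lowest of the male groups.

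Below 1 FPKM in both groups, 8 further genes passed, 1 of them higher. The smallest adjusted p values were those of Iqcg, a protein of the sperm flagellum, and Adcy1, an adenylyl cyclase. Iqcg had the authors' means of 0.546 and 0.159 FPKM (edgeR adjusted p = 0.00203 in the authors' deposited table). Adcy1 had 0.288 and 0.0856 FPKM (edgeR adjusted p = 0.00472 in the authors' deposited table). Slc22a26, an organic anion transporter gene, fell from 0.616 to 0.136 FPKM (edgeR adjusted p = 0.00839 in the authors' deposited table), and scrambled females of day 6 had 56.9 FPKM of it.

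The sex-biased genes could also be taken from mice outside this comparison. Scrambled males and scrambled females of day 3 differed at an edgeR adjusted p under 0.05 in the authors' deposited table for 517 of the 9200 genes (5.62%), 275 higher in males and 242 higher in females. None of those mice is among the day 6 males. Of the 275 male-biased genes, 175 (63.6%) had a positive log2 ratio with LNA-1948 at day 6, against 52.5% of the 8683 genes that were not sex-biased. At an unadjusted edgeR p under 0.05, 41 of them (14.9%) were higher and 17 (6.18%) lower, beside 2.42% and 2.49% over all genes. By the adjusted p, Ddc, Mup16, Mup17 and Cyp7b1 passed as higher and Arhgef26 as lower.

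Of the 242 female-biased genes, 156 (64.5%) had a negative log2 ratio, against 47.5% of the genes that were not sex-biased. At an unadjusted edgeR p under 0.05, 26 (10.7%) were lower and 8 (3.31%) higher. By the adjusted p, Sult1a1, Hao2, Cyp3a41a, Cyp2b9 and Cyp2c40 passed as lower and Cyp2a5 as higher. The median log2 ratio was 0.08 for male-biased and -0.07 for female-biased genes. From the ratio of mean FPKM, which lay 0.0562 higher at the median than the authors' ratio on the log2 scale, the female-biased median was -0.01 and the male-biased 0.14.

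The share at an unadjusted p under 0.05 was larger for genes with a larger sex difference, while the share with a given sign did not follow that order. Among male-biased genes, 6.54% of those with a sex difference under 2-fold were higher at an unadjusted edgeR p under 0.05. This share was 22.7% of the 66 genes between 2-fold and 4-fold and 28.6% of the 56 genes at 4-fold or more. Among female-biased genes the shares that were lower were 6.08% of 148, 13.4% of 67 and 29.6% of 27. In the same classes 58.2%, 71.2% and 69.6% of male-biased genes had a positive log2 ratio, and 68.2%, 58.2% and 59.3% of female-biased genes a negative one. Without the Mup genes, 34 of 262 male-biased genes (13.0%) were higher in the same way, a choice made after the values were seen.

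**Figure D3:**
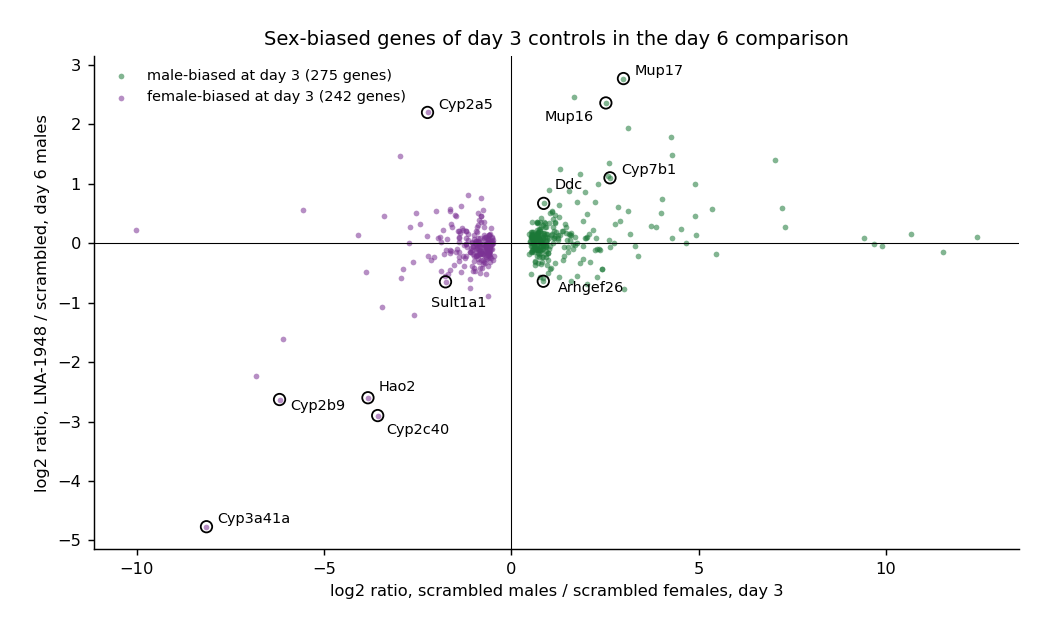
Day 6 log2 ratio of LNA-1948 to scrambled males (vertical axis) against the day 3 log2 ratio of scrambled males to scrambled females (horizontal), for 275 male-biased (green) and 242 female-biased genes (purple). Circled genes passed at day 6; Cyp2a5 lies in the upper left and Arhgef26 in the lower right, against the other circled genes.

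The promoters of the sex-biased genes were searched for TTCNNNGAA, the core letters of sites bound by STAT proteins, which read the same on both strands. It was in 8.5% of 27025 RefSeq promoters and 6.6% of the 7283 genes at 1 FPKM with a promoter. Male-biased genes of day 3 held it in 8.8% of 216 promoters and female-biased genes in 5.9% of 185. None of the 7 promoters of genes that passed as higher held these letters in the window, nor did any of the 10 of genes that passed as lower, the Mup promoters shown above included.

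The growth hormone list gave no gene past the threshold among 14 at 1 FPKM, with a median log2 ratio of -0.02. Socs2, an inhibitor of growth hormone signalling that STAT5 induces, had the authors' means of 6.77 and 4.46 FPKM at day 6 (edgeR adjusted p = 0.357 in the authors' deposited table), and 14.1 and 6.22 FPKM at day 3. Bcl6 had means of 2.02 and 5.15 FPKM (edgeR adjusted p = 1 in the authors' deposited table). Stat5b itself had means of 6.1 and 6.03 FPKM, and the female-specific repressor gene Cux2 was near 0 at 0.0511 and 0.052 FPKM in the authors' deposited table. Igf1, a growth hormone target gene of the liver named after its values were seen, had a log2 ratio of -0.17, which did not pass.

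The day 6 ratios were next set beside those of LNA-1948 males at day 3, which come from other mice. At day 3, 11 of 9258 genes (0.119%) passed in the authors' deposited table by the edgeR adjusted p. Hao2 was the only 1 of the 22 day 6 genes among them, in the opposite direction. Of the 22 genes, 17 (77.3%) had the opposite sign at day 3, against 54.7% of all 9200 genes. The 5 with the same sign were Ankrd55, Arhgef26, Aqp8, Mup15 and Gm7120.

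A two-sided z test of the difference between both log2 ratios, with standard errors taken from the authors' p-values, could be made for 9104 genes and found 46 (0.505%) at an adjusted p under 0.05. The day 6 ratio was the higher one for 29 of them and the lower one for 17, and the signs were opposite for 45, with Serpina12 the exception. Picking genes by a large difference between the ratios favours opposite signs, so that count is not a separate result. Among the 22 genes, 9 differed by the z test: Cyp2a5, Mup9, Ddc, Fam213b, Cyp7b1, Hao2, Cyp3a41a, Cyp2b9 and Cyp2c40. Day and library series cannot be told apart.

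Of the lower day 6 ratios, that of smallest p was Hao2, with a difference of -4.55 ± 0.69 (standard error; adjusted p = 3.03e-07), and Cyp3a41a, with -9.18 ± 1.61 (adjusted p = 4.86e-05). They were followed by Acot1, a cytosolic acyl-CoA thioesterase, with -1.68 ± 0.31 and Fam213b with -2.06 ± 0.39. Next came Abcd2, a peroxisomal importer of fatty acids, with -2.15 ± 0.42 on the log2 scale. The authors' means of Acot1 were 3.96 and 2.21 FPKM at day 6 and 2.13 and 3.67 FPKM at day 3, again a crossing of the groups.

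The higher day 6 ratios of smallest p were those of Gpr110, an adhesion receptor, with 1.82 ± 0.36 (adjusted p = 0.000695), Cyp7b1 with 1.62 ± 0.33 and Mup9 with 5.13 ± 1.04. Lifr, the receptor of leukaemia inhibitory factor, had 0.99 ± 0.21, and Grb10, an adaptor that restrains insulin signalling, 1.21 ± 0.26. Lifr had the authors' means of 28.9 and 38.8 FPKM at day 6 and of 40.5 and 26.6 FPKM at day 3. Serpina12, which encodes the adipokine vaspin and is male-biased in liver, had 8.82 and 8.89 FPKM at day 6 but 9.82 and 3.96 FPKM at day 3. Its difference of 1.27 ± 0.28 therefore came from the day 3 ratio.

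**Figure D4:**
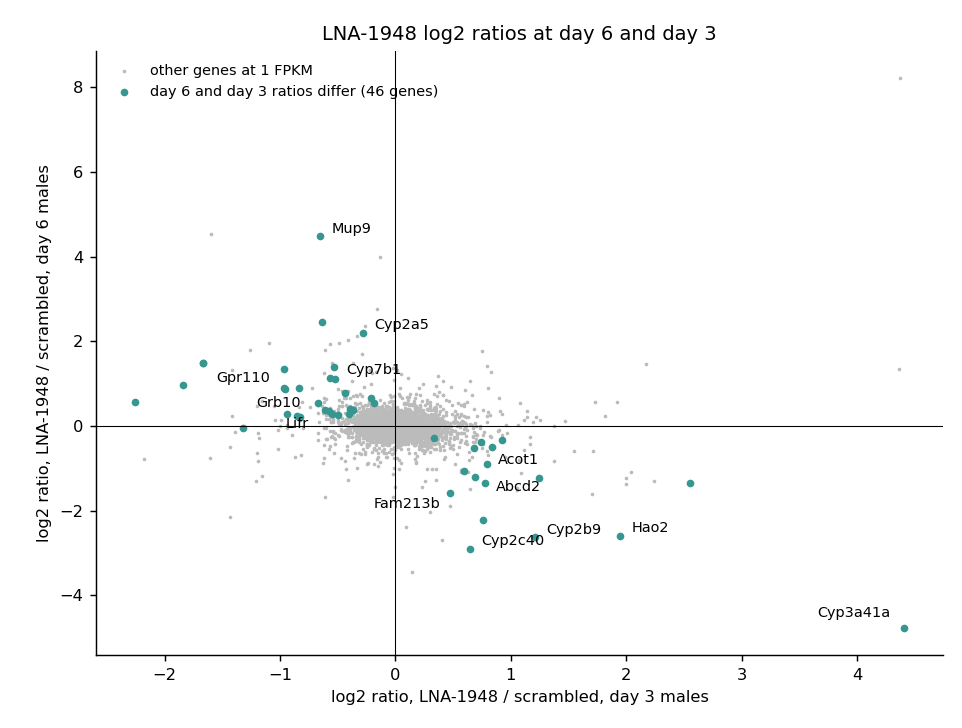
Log2 ratio of LNA-1948 to scrambled males at day 6 (vertical axis) and at day 3 (horizontal), with 1 point per gene. The 46 green genes, whose ratios differed between the days, lie in the upper left (such as Mup9 and Cyp7b1) and lower right (such as Hao2 and Cyp3a41a), except Serpina12, which is just below 0 on the vertical axis.

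With LNA-802 in females at day 6, from which the sex also differs, 63 of 9457 genes (0.666%) passed in the authors' deposited table by the edgeR adjusted p. Of the 22 genes, Rassf4 and Cyp2a5 were among them, each in the opposite direction. Rassf4 had the authors' means of 1.17 FPKM in scrambled and 3.41 FPKM in LNA-802 females (edgeR adjusted p = 0.036 in the authors' deposited table). Cyp2a5 had 49.8 and 26.1 FPKM (edgeR adjusted p = 0.00186 in the authors' deposited table). The z test between the LNA-1948 and LNA-802 log2 ratios could be made for 9341 genes and found 46 (0.492%), with 12 of the 22 among them. Mt1 and Mt2, the metal-binding metallothioneins, had log2 ratios of 0.13 and 0.56 with LNA-1948 at day 6 and did not pass (edgeR adjusted p = 1 for both in the authors' deposited table).

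Genes of fatty acid oxidation and fatty acid synthesis mostly had negative log2 ratios, unlike those of cholesterol and bile acid synthesis. Of 27 fatty acid oxidation genes at 1 FPKM, 24 had a negative log2 ratio, with a median of -0.11, or -0.06 from the ratio of mean FPKM. Of these 27, 6 were lower at an unadjusted edgeR p under 0.05 and none passed the adjusted p. Over all 9200 genes, 47.6% had a negative log2 ratio and 2.49% were lower at that unadjusted p. Cyp4a14, an omega-hydroxylase induced by PPARα, had the authors' means of 17.2 and 1.63 FPKM (edgeR adjusted p = 0.0673 in the authors' deposited table). Pdk4, which restrains glucose oxidation, had means of 1.88 and 1.4 FPKM (edgeR adjusted p = 0.96 in the authors' deposited table).

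Of 20 fatty acid synthesis genes, 17 had a negative log2 ratio, against 47.6% of all genes, with a median of -0.30. At an unadjusted edgeR p under 0.05, 5 were lower, against 2.49% of all genes, and none passed the adjusted p. The elongase gene Elovl5 had the authors' means of 178 and 126 FPKM (edgeR adjusted p = 0.101 in the authors' deposited table). The desaturase gene Scd1 had means of 1220 and 661 FPKM (edgeR adjusted p = 0.989 in the authors' deposited table). Pnpla3 and Lpin1, lipid-remodelling genes, had log2 ratios of -1.29 and -0.57 that did not pass. Of 23 cholesterol synthesis genes, 14 had a positive log2 ratio and none passed, with a median of 0.05. Of 19 bile acid genes, Cyp7b1 alone passed, and Cyp7a1, the rate-limiting enzyme of the classical pathway and named after its values were seen, had means of 2.02 and 3.11 FPKM in the authors' deposited table.

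The chaperone genes were alike in sign and small in size. All 18 heat shock genes at 1 FPKM had a positive log2 ratio, from 0.06 to 0.83, with a median of 0.22, and none passed. Hsph1, a cytosolic chaperone of the Hsp110 family, had the authors' means of 6.3 and 10.5 FPKM (edgeR adjusted p = 0.377 in the authors' deposited table). Of 20 genes of the unfolded protein response, 19 had a positive log2 ratio, with a median of 0.24 and none past the threshold. Syvn1, a ubiquitin ligase of the endoplasmic reticulum, had 13.6 and 19.7 FPKM, and Sdf2l1, a chaperone cofactor there, 11.5 and 17.9 FPKM in the authors' deposited table. The exception, named after its values were seen, was Ddit3, which encodes the stress factor CHOP, with a log2 ratio of -0.46 that did not pass. The median ratio of the heat shock genes at day 3 was 0 and that of the unfolded protein response 0.08 on the log2 scale. Genes of 1 pathway are not independent of each other, and a shared sign is given here with no test.

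**Figure D5:**
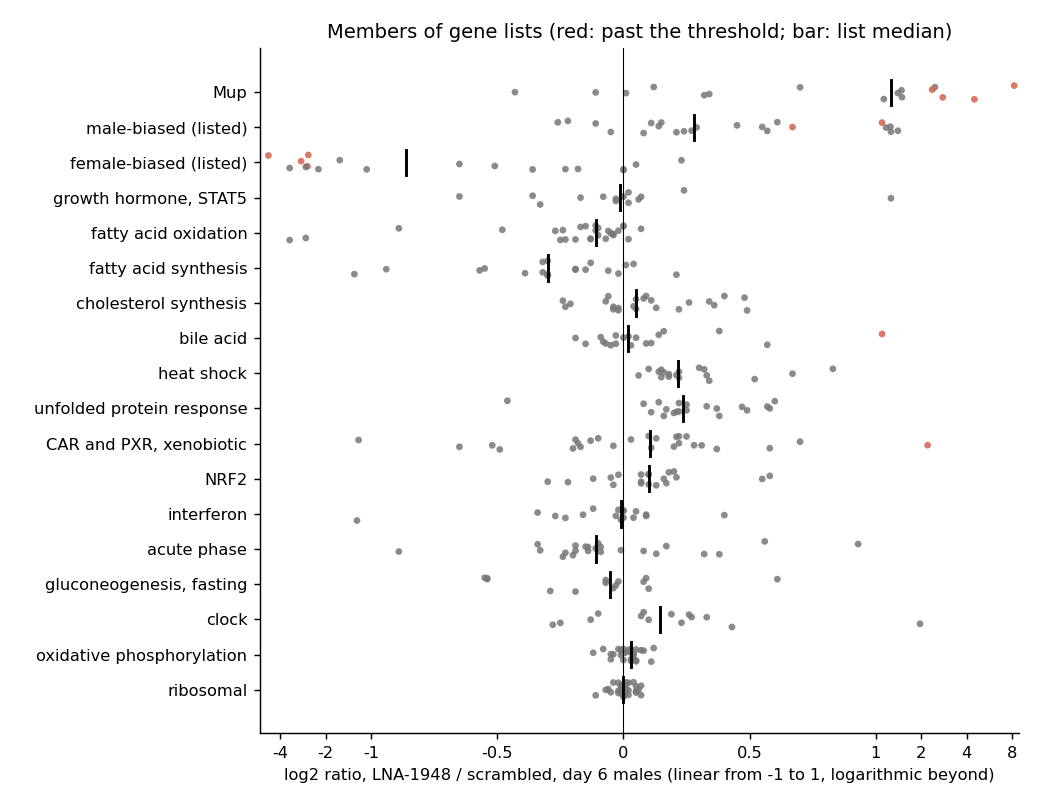
Day 6 log2 ratio of LNA-1948 to scrambled males (horizontal axis, linear from -1 to 1 and logarithmic beyond) for the members of 18 gene lists at 1 FPKM. Red points passed the edgeR adjusted p and black bars are list medians, which run from -0.86 for listed female-biased genes to 1.27 for Mup genes.

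In the list of xenobiotic genes regulated by CAR and PXR, 15 of 26 had a positive log2 ratio, and only Cyp2a5 passed. Cyp2b10, the usual reporter of CAR activity, had the authors' means of 3.63 and 2.43 FPKM (edgeR adjusted p = 1 in the authors' deposited table). Gstm3, a glutathione transferase that NRF2 also regulates, had 29.2 and 45.5 FPKM (edgeR adjusted p = 0.0508 in the authors' deposited table). Of 20 NRF2 genes, 14 had a positive log2 ratio and none passed. The p53 list, read because oligonucleotides can be toxic to liver, had 10 genes at 1 FPKM, 6 with a positive log2 ratio and none that passed. Its first member, Trp53inp1, had 7.81 and 5.92 FPKM (edgeR adjusted p = 0.0817 in the authors' deposited table).

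The immune lists held no gene that passed. Of 17 interferon genes, 5 had a positive log2 ratio, against 52.4% of all 9200 genes. Several of the others lay just below 0. The list median was -0.01, or 0.05 from the ratio of mean FPKM, so the count of signs depends on which ratio is used. Irf9, a subunit of the interferon-activated transcription factor, had the authors' means of 7.99 and 3.49 FPKM (edgeR adjusted p = 0.164 in the authors' deposited table). Irf9 was 1 of the 46 genes whose ratio differed between the days, with 3.27 and 7.76 FPKM at day 3. Of 23 acute phase genes, 7 had a positive log2 ratio, and Saa1, a serum amyloid gene, had 26.7 and 52.3 FPKM (edgeR adjusted p = 0.128 in the authors' deposited table). Of 19 MHC class I genes, 13 had a positive log2 ratio. H2-Q6 and H2-Q8, which have the same ratio and share reads, had 1.92 and 5.64 FPKM and 1.86 and 5.47 FPKM (edgeR adjusted p = 0.989 for both in the authors' deposited table).

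None of the remaining lists held a gene that passed. The clock list had 10 of 14 positive log2 ratios and none past the threshold. Its output gene Dbp had the authors' means of 0.877 and 3.58 FPKM (edgeR adjusted p = 1 in the authors' deposited table). Gluconeogenesis and fasting genes had 4 of 14 positive log2 ratios, with Angptl4, an inhibitor of lipoprotein lipase, at 8.31 and 5.91 FPKM in the authors' deposited table. Pericentral genes had 8 of 9 positive log2 ratios with a median of 0.13, and periportal and urea cycle genes 8 of 12 with a median of 0.03. Of 13 carboxylesterase genes 6 had a positive log2 ratio, and Ces4a had 0.543 and 1.45 FPKM (edgeR adjusted p = 0.223 in the authors' deposited table). The microRNA machinery, at 11 genes, had log2 ratios from -0.08 to 0.12. The 30 ribosomal genes ranged from -0.11 to 0.07 and the 28 oxidative phosphorylation genes from -0.12 to 0.12 on the log2 scale. The 5 cell cycle genes at 1 FPKM ranged from -0.19 to 0.21 and none passed.

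Cell type markers were compared as summed means, since in whole liver fewer cells of a type and less RNA per cell cannot be told apart. Kupffer cell markers, 12 of 13 at 1 FPKM, summed to 58.7 FPKM in scrambled and 56.8 FPKM in LNA-1948 males at day 6. Endothelial markers, 13 of 13, summed to 75.3 and 78.2 FPKM, stellate cell markers, 11 of 13, to 56.6 and 53.4 FPKM, and erythroid markers, 7 of 9, to 112 and 105 FPKM. None of the listed neutrophil, T and NK cell, B cell or adipocyte markers reached 1 FPKM in either group. Of the cholangiocyte markers 2 of 9 did, and of the exocrine pancreas markers Cela1 alone, while 9 of 11 pancreas markers were under 0.1 FPKM in both groups. No marker of any list passed the threshold. Among the hepatocyte markers, Alb, which encodes albumin, had the authors' means of 17800 and 14100 FPKM (edgeR adjusted p = 0.997 in the authors' deposited table), and 8 of 10 had a negative log2 ratio. How far the hepatocyte sum bears on the other results was not tested.

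The messenger RNAs that miR-1948-5p could target were sought by its seed match. LNA-802 pairs with bases 2 to 16 of miR-802-5p, and LNA-1948, of the same length of 15 bases, was taken to pair with its microRNA in the same place. On that assumption a 7-base match to the seed reads ACTCATA in a messenger RNA. A 3′ UTR from the GENCODE annotation was found for 8777 of the 9200 genes, and 571 of these (6.51%) held the match. Their median log2 ratio was 0.0066, against 0.0074 for the 8206 genes without it, and 51.8% against 52.8% had a positive one. The median of the genes with a match was thus not above that of the genes without.

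Among the 571 genes with a match 1 passed as higher and 3 as lower, beside 8 and 10 of the 8206 without one and 0.0978% and 0.141% over all genes. Their sites are shown because these are the genes in which a seed match and a change met, with the match in capitals and 10 bases on each side.
Cyp2a5: ctcaattaacACTCATAagtgcatggg
Ankrd55: gtttttatatACTCATAttttctttct
Dusp1: gtcattgtctACTCATAgaagaaccaa
Hao2: agattttgaaACTCATAtttaaaactt
Cyp2a5, the gene that rose, has its match 257 bases into a UTR of 469 bases. The matches of Ankrd55, Dusp1 and Hao2, which fell, lie 2072, 443 and 604 bases into UTRs of 2804, 690 and 788 bases. None of the 4 Mup genes that rose holds a match, nor does Cyp7b1. The 55 genes with 2 or more matches had a median log2 ratio of -0.0414, with 36.4% positive, in UTRs with a median length of 3475 bases. The 180 genes whose match is followed by an A had a median of 0.0083. At an unadjusted edgeR p under 0.05 in the authors' deposited table, 8 of these genes were higher and 1 lower. By the same p, 14 of all 571 genes with the 7-base match were higher and 18 lower. Over the 8777 genes with a UTR these counts were 212 and 214. The difference between these sets was not tested. Genes with a match to miR-802-5p, which was not targeted in these mice, had a median of 0.0089 over 928 genes. UTRs with a miR-1948-5p match had a median length of 2671 bases and those without 1020 bases, so the genes were also split by UTR length. The medians with and without a match were 0.0145 and 0.0042 in UTRs under 500 bases, 0.0093 and 0.0057 from there to 1500 bases, and 0.0045 and 0.0106 in longer ones, so the order was not the same in all.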

How the data were processed

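Liver poly(A) RNA of 5 LNA-1948 and 3 scrambled LNA males of day 6 was sequenced with a strand-specific kit, per the labels. The authors used TopHat2 (mm9), featureCounts and edgeR, per the submitters' processing notes, which give neither versions nor the edgeR test. Group means are FPKM values computed by the authors, per the file headers. The ratio of each gene is also the authors' own, per the file headers, and its log2 was taken here. Both kinds of p-value, unadjusted and adjusted, were deposited by the authors. Recomputing a Benjamini-Hochberg adjustment over all 24197 genes gave the deposited adjusted p to within 5e-13. The ratio differed from that of the mean FPKM by -0.0562 on the log2 scale at the median, and 99.7% of genes lay within 0.1 of it.

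The table gives no counts and no value per mouse, so depth is unknown and no test per gene was run beyond the authors' own, as planned for such a table. Changes are counted at the authors' edgeR adjusted p under 0.05, for genes at 1 FPKM in either group. A standard error was taken from each log2 ratio and its p. The difference between 2 comparisons without shared mice was tested by a two-sided z test with Benjamini-Hochberg adjustment. This calculation was checked on simulated data. Without values per mouse, that check could not show whether the standard errors hold for such small groups or for very low means. The z test p-values are therefore approximate. The members, the 27 pathway lists, the 11 marker lists (661 genes, 11 of them absent from the table) and the tests were chosen with earlier results of these data known. Lists are described by counts and medians, with no set test.

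Named genes are those past the threshold at 1 FPKM, the 3 of smallest adjusted p below it and up to 4 members of a list by smallest p. Also named are the 5 differences between the days with the smallest z test p in each direction. A fixed set such as Hao2, Stat5b and Mt1 completes them. Any other gene whose day 6 change is given is said to be named after its values were seen. Promoters were RefSeq sequences and 3′ UTRs came from GENCODE. Identities were computed with edlib in Python 3.11.15, with pandas 2.3.3 and scipy 1.17.1. Expression minimum, threshold, adjustment and pseudocount were varied. Coordinates of genes are mm9, as in the table, and those of promoters GRCm38.p6.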

Additional observations from a re-analysis of the deposited data

Results flagged for a closer look

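Of the named genes, those in this paragraph were picked out because the LNA-1948 log2 ratio at day 6 differed from that at day 3 by the z test (adjusted p under 0.05), and the values are day 6 minus day 3. Lower at day 6 were Cyp3a41a (-9.18), Hao2 (-4.55), Cyp2b9 (-3.85), Cyp2c40 (-3.56), Irf9 (-2.49), Abcd2 (-2.15), Fam213b (-2.06), Cyp2c38 (-1.9) and Acot1 (-1.68). Higher at day 6 were Mup9 (5.13), H2-Q6 and H2-Q8 (3.16 each), Cyp2a5 (2.48), Ces4a (2.32), Mup20 (1.94), Gpr110 (1.82), Cyp7b1 (1.62), Serpina12 (1.27), Grb10 (1.21), Lifr (0.99) and Ddc (0.88). H2-Q6 and H2-Q8 share reads and count as a single observation. For Hao2, Cyp3a41a, Acot1 and Irf9 the authors' control means at day 6 were near the treated means at day 3, and the reverse. Day and library series cannot be told apart.

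Of the named genes, those that follow were picked out because the log2 ratio of LNA-1948 in males differed from that of LNA-802 in females at day 6 by the same test, and the values are male minus female. Higher with LNA-1948 were Mup9 (5.03), Mt2 (3.45), Cyp2a5 (3.11), Mt1 (3.08), Mup16 (3.04), Saa1 (2.4), H2-Q9 (1.54) and Cyp7b1 (1.36). Lower were Cyp4a14 (-6.47), Rassf4 (-3.07), Cyp2c40 (-3.05), Cyp4a10 (-3.03), Cyp2b9 (-2.65), Hao2 (-2.59), Fam213b (-2.05), Ankrd55 (-1.62), Dusp1 (-1.25), Socs2 (-1.23) and 1810011O10Rik (-1.06). The oligonucleotide and the sex of the mice cannot be told apart in these differences.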

How the results depend on the processing

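The counts of genes past the threshold depended on the settings. At 1 FPKM, 9 genes were higher and 13 lower by the authors' edgeR adjusted p under 0.05. At an adjusted p under 0.1 the counts were 20 higher and 24 lower, and at an unadjusted p under 0.05 they were 223 and 229. Adjusted over the genes at 1 FPKM alone they were 22 and 26. The lower genes numbered 7 at an adjusted p under 0.01, 7 with a 5 FPKM minimum, and 20 with no minimum or one of 0.1 FPKM. The cause follows from the settings. The FPKM minimum changes which genes are counted, the p settings move the threshold, and adjusting over the genes at 1 FPKM tests fewer genes. The median log2 ratio of the listed female-biased genes was -0.86, and it was -0.7 from mean FPKM with a pseudocount of 1, -0.58 with a 0.1 FPKM minimum and -1.83 with a 5 FPKM minimum. The Mup median of 1.27 was 0.84 with a pseudocount of 1 and 1.44 with a 5 FPKM minimum. The median of genes female-biased at day 3, -0.07, was -0.23 for those with at least a 4-fold sex difference, a choice made after seeing the data. The p53 median of 0.03 was -0.1 with a 5 FPKM minimum. The stellate cell median moved from -0.18 to -0.07 with a pseudocount of 1 and the cell cycle median from -0.07 to -0.19 with a 0.1 FPKM minimum. The cause of these shifts in medians was not tested. The other 141 alternative values of list medians kept within 0.1 of theirs, and of the alternative values of single genes 383 moved by less than 0.1 on the log2 scale and 79 by more. With a 5 FPKM minimum, 31 genes differed between day 6 and day 3, against 46. No paired analysis was possible because the table holds no value per mouse, and for the same reason leaving out each mouse in turn was not run. With group means alone, the influence of any 1 mouse on a ratio, such as those of Mup15 and Cyp3a41a, is unknown.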
